A study of Mus musculus with 6 samples.

Results

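Pdgfra, a receptor tyrosine kinase, and the 4 ligands of the platelet-derived growth factor (PDGF) family, Pdgfa, Pdgfb, Pdgfc and Pdgfd, were followed in RNA-seq of mouse maxillary prominences at embryonic day 12.5 (E12.5). The 5 genes were picked by name, as a ligand and receptor family, among the 53801 genes counted, and all 5 passed the filter on low counts that left 17514 genes for testing. PDGF ligands are secreted dimers that bring receptor chains together and so switch on their kinase domains. PDGF-AA and PDGF-CC act mainly through Pdgfra, whereas PDGF-BB and PDGF-DD act mainly through Pdgfrb, and the C and D chains are secreted in a latent form that a protease must cut. In the face, Pdgfra marks neural crest mesenchyme, its ligand Pdgfa is made largely by the covering epithelium and Pdgfc in part, and mice that lack Pdgfra in neural crest or lack Pdgfc develop facial clefts.

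Tissue came from 3 wild-type (WT) samples and 3 samples of genotype Wnt1cre; Rosa26Dlx2/- (Dlx2OE), all labelled with the strain C57BL/6. The Rosa26 line was made in C57BL/6J, and the strain of the Wnt1cre parent is not given in the sources used here. In Dlx2OE embryos a Flag-tagged Dlx2 sequence behind the CAG promoter and a stop cassette was placed at the Rosa26 locus. Cre under Wnt1 control removed the stop in the neural crest lineage, so that surface epithelium and endothelium lie outside the cells the transgene was built for. No sample that carried Cre alone or the unrecombined Rosa26 allele alone was among the 6. The samples are independent RNA preparations from littermates, the labels and the methods differ on the number of littermates, and which embryos went into which sample is not given in the sources used here, so p-values measure the spread between these preparations.

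Each library held 26155500 to 31308813 read pairs counted on genes. Dlx2 itself, the check of the labels, had 42.9, 35 and 45.2 CPM (counts relative to the library total, scaled by the TMM method) in WT replicates 1 to 3 and 119, 131 and 123 CPM in Dlx2OE replicates 1 to 3, a log2 fold change of 1.60 (SE 0.118, adjusted p = 0.00241, edgeR's quasi-likelihood test, adjusted by Benjamini-Hochberg over all tested genes, used for every adjusted p unless another tool is named). The 11 mesenchymal markers summed to 4810 to 5060 CPM in WT and 5390 to 5650 CPM in Dlx2OE, so that the labelled tissue was rich in mesenchyme in all 6 libraries, and 2 of the 11 were higher in Dlx2OE at an adjusted p under 0.05, as were 2.99% of all tested genes. Markers of epithelium, endothelium, neurons and blood were also detected, and only Foxd3, a marker of early neural crest and glia, was at 0 in all libraries. In bulk tissue, fewer cells of a type and less RNA per cell cannot be told apart. Read pairs in no annotated gene made up 5.03% to 5.43% of those in WT, 5.75% and 7.81% in Dlx2OE replicates 1 and 2, and 14.7% in Dlx2OE replicate 3, which stood apart. That library also had the most neuronal and glial RNA, with 807 CPM summed over 6 neuronal markers, against 60.3 to 415 CPM in the other libraries, and 316 CPM over the glial markers, against 93.2 to 190 CPM. The neuronal markers had a median log2 fold change of 1.37, against 0.00 over all tested genes, with 6 of 6 higher in Dlx2OE. None had an adjusted p under 0.05, and 1 had an unadjusted p under 0.05, as did 29.5% of all tested genes. Their sum in Dlx2OE replicate 1, 181 CPM, lay within the WT range of 60.3 to 282 CPM.

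Of the 5 genes, only Pdgfd differed between genotypes at an adjusted p under 0.05, where 6.45% of all tested genes did so. It also passed a log2 fold change of 1 in size, as 3.12% of all tested genes did. At an unadjusted p under 0.05 stood Pdgfd and Pdgfc, 2 of the 5 genes against 29.5% of all, and the same 2 did not overlap between genotypes, against 34.1% of all. Pdgfd (ENSMUSG00000032006) lies on chromosome 9 (GRCm38, GENCODE M21, 6168584 to 6378850, forward strand), with the gene Ddi1 in an intron and 549652 bp to the nearest protein-coding gene beyond its end. Pdgfc (ENSMUSG00000028019, chromosome 3, 81036416 to 81214040, forward strand) was the other gene without overlap between genotypes, and Pdgfra (ENSMUSG00000029231, chromosome 5, 75152292 to 75198215, forward strand) is the receptor on which the palate depends. The 250 bases before the RefSeq start of these 3 genes are printed here as the regulatory sequence nearest to the transcripts compared, from RefSeq on build GRCm38.p6, all on the forward strand, 5′ to 3′. They were searched on both strands for TAATTA, a core site of DLX and other homeodomain factors, for the shorter TAATT or its complement AATTA, which TAATTA contains, and, after the values of Srf had been seen, for the CArG box that serum response factor binds. Capitals mark a CArG box.
Pdgfd chr9:6168236-6168485: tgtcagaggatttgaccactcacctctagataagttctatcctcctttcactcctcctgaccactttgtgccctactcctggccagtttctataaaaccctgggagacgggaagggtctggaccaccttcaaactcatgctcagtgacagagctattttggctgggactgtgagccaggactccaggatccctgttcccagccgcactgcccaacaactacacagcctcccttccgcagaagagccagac
Pdgfc chr3:81036166-81036415: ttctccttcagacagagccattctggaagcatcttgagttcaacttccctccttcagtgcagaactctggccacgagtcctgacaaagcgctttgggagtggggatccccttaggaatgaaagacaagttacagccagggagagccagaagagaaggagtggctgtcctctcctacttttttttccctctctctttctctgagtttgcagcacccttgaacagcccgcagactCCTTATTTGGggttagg
Pdgfra chr5:75152001-75152250: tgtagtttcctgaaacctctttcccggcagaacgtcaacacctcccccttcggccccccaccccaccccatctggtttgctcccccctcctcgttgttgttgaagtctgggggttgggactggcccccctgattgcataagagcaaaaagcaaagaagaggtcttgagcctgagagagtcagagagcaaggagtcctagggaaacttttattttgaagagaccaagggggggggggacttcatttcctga
None of the 3 windows held TAATTA or TAATT in either orientation, letters that 4.84% and 25.0% of all 32851 RefSeq promoter windows of this length held. The Pdgfc window held a CArG box from 17 to 8 bases before the start, and 1.47% of all windows held such a box. A match or its absence describes these letters only. A promoter entry was at hand for 4 of the 5 genes, and Pdgfb was the gene without it.

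The receptor was the most abundant of the 5 genes. Pdgfra had 432, 290 and 390 CPM in WT replicates 1 to 3, from 12644, 8749 and 12174 counts, and 340, 408 and 403 CPM in Dlx2OE replicates 1 to 3, from 10082, 12826 and 10915 counts. The Dlx2OE values lay within the WT range, and the lowest level in each genotype was that of WT replicate 2 and Dlx2OE replicate 1. WT samples averaged 371 ± 72.8 CPM and Dlx2OE samples 384 ± 37.9 CPM (n = 3 each, SD). The log2 fold change of 0.05 (SE 0.165, 95% interval -0.33 to 0.43) did not pass the test (adjusted p = 0.855). An exact two-sided permutation test gave p = 0.8, where 3 samples against 3 cannot give less than 0.1. The interval reached no further than 0.43 from 0, and the sign was not settled, as the value was -0.14 after a correction for gene length and GC content. Scaled by the length of its annotated exons, Pdgfra stood at 37.0 RPKM (here CPM per kilobase of exon) in WT, above 92.7% of 17496 tested genes. Of its exon sequence, 6.5% is shared with other annotated genes.

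**Figure D1:**
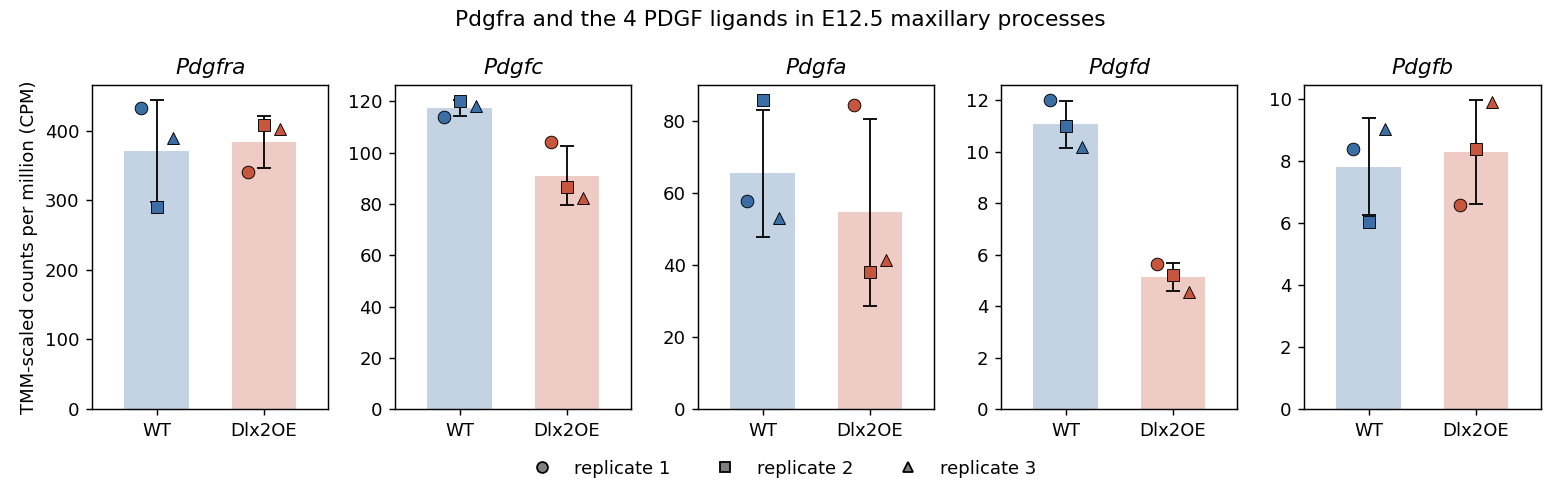
CPM (y axis, linear, a separate scale for each gene) of Pdgfra, Pdgfc, Pdgfa, Pdgfd and Pdgfb in 3 WT and 3 Dlx2OE samples. Points are samples, with a shape for each replicate number, bars are means and whiskers are SDs. The Pdgfd samples of Dlx2OE, at 4.54 to 5.64 CPM, sit under all WT samples, at 10.2 to 12 CPM, and the Pdgfc samples are also apart, whereas the genotypes overlap in the other 3 genes.

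Among the ligands, Pdgfd, which signals mainly through Pdgfrb, fell. It had 12, 11 and 10.2 CPM in WT replicates 1 to 3, from 351, 330 and 317 counts, and 5.64, 5.22 and 4.54 CPM in Dlx2OE replicates 1 to 3, from 167, 164 and 123 counts. Every Dlx2OE sample was below every WT sample, and the values were tight within both genotypes, at 11 ± 0.916 and 5.13 ± 0.553 CPM (n = 3 each, SD). The log2 fold change was -1.10 (SE 0.175, 95% interval -1.51 to -0.70), a change of -53.4%, with an adjusted p of 0.0184 in edgeR and 1.03e-05 in DESeq2. Of all tested genes, 17.3% were lower in Dlx2OE without overlap, and 3.46% were lower at an adjusted p under 0.05 in edgeR and 7.11% in DESeq2. The exact permutation test gave its smallest possible p of 0.1. The size of the fall held when each sample was left out in turn, from -1.18 to -1.02, but the call did not: the adjusted p was 0.0678 without WT replicate 1, 0.0836 without WT replicate 2, 0.0663 without Dlx2OE replicate 2 and 0.0551 without Dlx2OE replicate 3. The number of genes called among all those tested also fell in those fits, to between 79 and 315.

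Of the genes around Pdgfd, Dync2h1 alone had enough counts for a test, and it did not pass. Dync2h1, a dynein heavy chain of cilia and the nearest protein-coding gene beyond its end, measured 63.7 ± 9.41 CPM (WT) and 71.1 ± 5.36 CPM (Dlx2OE, n = 3 each, SD, log2 fold change 0.16, SE 0.126, adjusted p = 0.421). Casp12, the nearest on the other side, had 6, 9 and 5 counts in WT replicates 1 to 3 and 0, 3 and 0 in Dlx2OE replicates 1 to 3, too few for a test. Ddi1, which lies in an intron of Pdgfd on the opposite strand, had at most 10 counts in a library, and no exon of Pdgfd overlaps another gene.

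Pdgfc, a ligand of Pdgfra, was lower in Dlx2OE without passing the test. Its levels were 114, 120 and 118 CPM in WT replicates 1 to 3, from 3348, 3622 and 3683 counts, and 104, 86.5 and 82.4 CPM in Dlx2OE replicates 1 to 3, from 3088, 2715 and 2231 counts. The genotypes did not overlap, WT samples differed little from each other (118 ± 2.94 CPM, SD, n = 3), and Dlx2OE replicate 1 came closest to them (Dlx2OE mean 91 ± 11.6 CPM, SD, n = 3). The log2 fold change was -0.37 (SE 0.111, 95% interval -0.62 to -0.11), with an adjusted p of 0.0794 in edgeR and 0.0706 in DESeq2, and the exact permutation test gave p = 0.1. Without Dlx2OE replicate 1 the log2 fold change was -0.49 and passed (adjusted p = 0.0362). The antisense gene Gm16000 overlaps Pdgfc and had at most 7 counts in a library, and 2.89% of the exon sequence of Pdgfc is shared. The nearest protein-coding genes are far away: Glrb, a glycine receptor subunit 122755 bp before Pdgfc, had a log2 fold change of 0.14 (SE 0.133, adjusted p = 0.517). Ctso, a cathepsin 718560 bp after Pdgfc, had one of -0.38 (SE 0.160, adjusted p = 0.161).

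**Figure D2:**
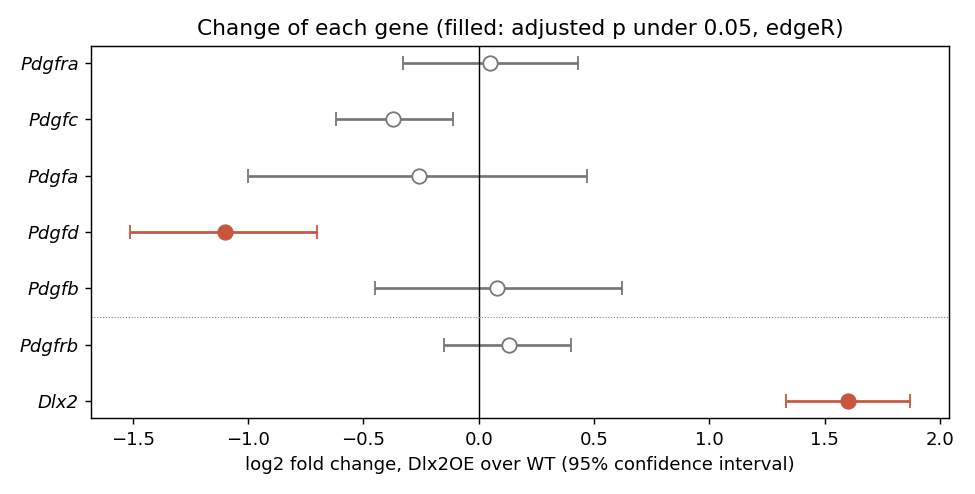
Log2 fold change of Dlx2OE over WT (x axis) with its 95% confidence interval for the 5 genes, for Pdgfrb and for Dlx2, the targeted gene. Filled points passed an adjusted p of 0.05 in edgeR. Pdgfd at -1.10 and Dlx2 at 1.60 are filled, and the interval of Pdgfc, at -0.37, lies below 0 although its adjusted p of 0.0794 did not pass.

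Pdgfa, the other main ligand of Pdgfra, varied most between samples of the same genotype relative to its mean. It had 57.8, 85.8 and 53.2 CPM in WT replicates 1 to 3, from 1691, 2586 and 1659 counts, and 84.6, 38 and 41.4 CPM in Dlx2OE replicates 1 to 3, from 2505, 1194 and 1122 counts. WT replicate 2 and Dlx2OE replicate 1 were high and alike, and the other Dlx2OE samples were below all WT samples. The means of 65.6 ± 17.7 CPM for WT and 54.7 ± 25.9 CPM for Dlx2OE (n = 3 each, SD) differed by less than the spread between samples. The log2 fold change of -0.26 (SE 0.318, 95% interval -1.0 to 0.47) did not pass (adjusted p = 0.604, exact permutation p = 0.5). When each sample was left out in turn it lay between -0.73, without Dlx2OE replicate 1, and -0.03. The gene (ENSMUSG00000025856) lies on the reverse strand of chromosome 5 (138976014 to 138997370), and 26.1% of its exon sequence is shared with the antisense gene 6330403L08Rik. That gene was also highest in WT replicate 2 (10.9 CPM) and Dlx2OE replicate 1 (11.1 CPM), against 4.2 to 7.79 CPM in the other 4 samples. Counting was in the union mode, per the methods, and its strand setting is not stated. If strand was ignored, reads on the shared sequence were ambiguous and left out of both genes. The exon length used for the RPKM of Pdgfa, 3119 bp, includes the shared part. How far the values of this pair depend on each other was not tested.

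The libraries where Pdgfa was high were those rich in epithelial RNA. The 10 epithelial markers, among them Epcam, Cdh1 and Krt14, summed to 748, 1330 and 1010 CPM in WT replicates 1 to 3 and to 1760, 582 and 571 CPM in Dlx2OE replicates 1 to 3. Below the highest library of each genotype the order did not hold. WT replicate 3 had a higher marker sum than WT replicate 1 but less Pdgfa (53.2 against 57.8 CPM). Dlx2OE replicate 2 had a higher sum than Dlx2OE replicate 3 but less Pdgfa (38 against 41.4 CPM). In 10 of 10 epithelial markers the highest level of each genotype was in WT replicate 2 and in Dlx2OE replicate 1. These were the libraries with the highest Pdgfa, and 14.6% of all tested genes peaked in both. Krt5 and Krt14 made up 538 and 490 CPM of the marker sum in Dlx2OE replicate 1, against 91.7 and 254 CPM in WT replicate 2. Epcam, Cdh1, Krt8, Krt18 and Cldn6 were lower in Dlx2OE replicate 1 than in WT replicate 2, and Esrp1, Grhl2 and Trp63 were higher. Between genotypes, 2 of the 10 markers were lower in Dlx2OE at an adjusted p under 0.05, as were 3.46% of all tested genes, and none was higher. The median log2 fold change was -0.38, against 0.00 over all tested genes, and the list moved both ways. The fitted level was lower for 7 and higher for 3, with log2 fold changes of 1.91 for Krt5 (adjusted p = 0.0792), 0.34 for Krt14 and 0.13 for Trp63. Without those 2 libraries the log2 fold change of Pdgfa was -0.49 (adjusted p = 0.1) and that of Pdgfd -1.19 (adjusted p = 0.0442). How much of the Pdgfa and Pdgfc values came from epithelium was not tested.

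**Figure D3:**
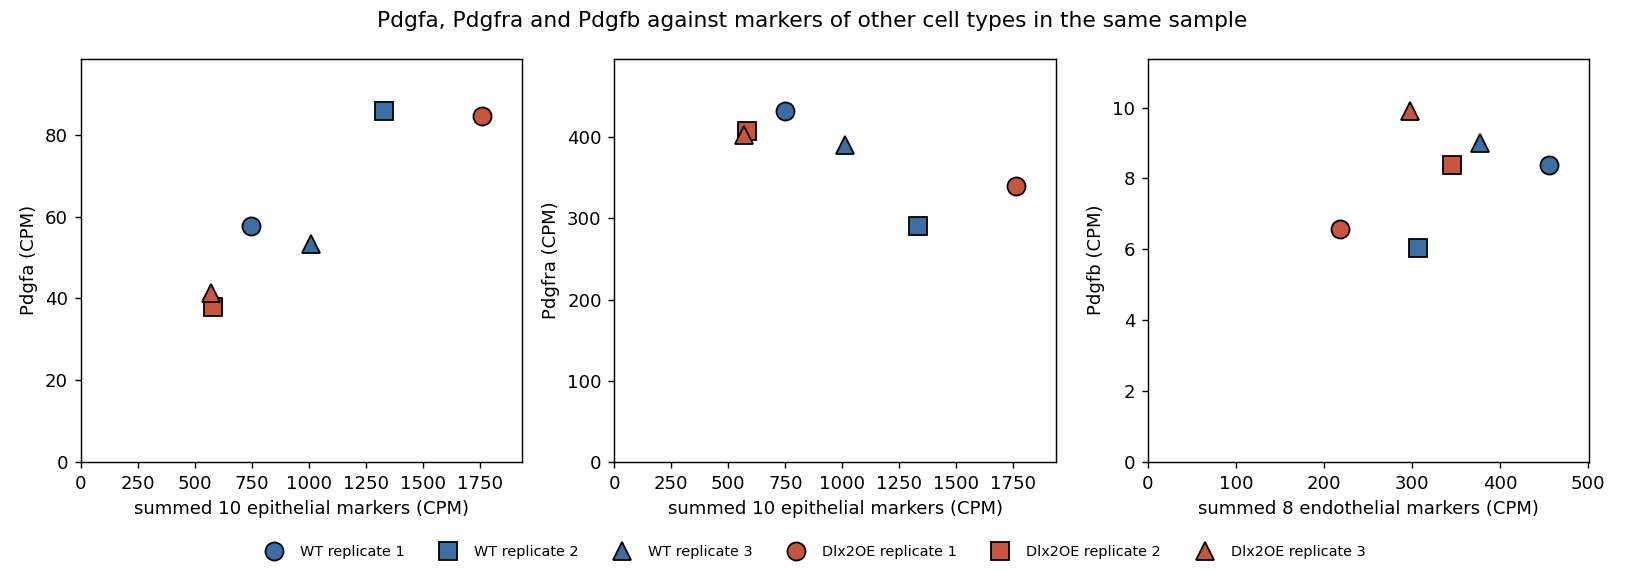
Level of Pdgfa (left) and Pdgfra (middle) against the summed level of 10 epithelial markers, and of Pdgfb (right) against that of 8 endothelial markers, all in CPM on linear axes, with a point for each of the 6 samples. WT replicate 2 and Dlx2OE replicate 1, at 1330 and 1760 CPM of epithelial markers, have the highest Pdgfa (85.8 and 84.6 CPM) and the lowest Pdgfra (290 and 340 CPM), and the same samples have the lowest Pdgfb of their genotype.

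Pdgfb, the ligand by which endothelium recruits pericytes, was the least abundant ligand in WT tissue. It had 8.37, 6.04 and 9.01 CPM in WT replicates 1 to 3, from 245, 182 and 281 counts, and 6.58, 8.38 and 9.9 CPM in Dlx2OE replicates 1 to 3, from 195, 263 and 268 counts. The genotypes overlapped, and WT replicate 2 and Dlx2OE replicate 1 were again the samples set apart, here as the lowest. WT samples averaged 7.81 ± 1.56 CPM and Dlx2OE samples 8.28 ± 1.66 CPM (n = 3 each, SD), and the log2 fold change of 0.08 (SE 0.230, 95% interval -0.45 to 0.62) did not pass (adjusted p = 0.822, exact permutation p = 0.6). Its sign depended on the samples, with -0.08 without WT replicate 2 and -0.06 without Dlx2OE replicate 3.

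Endothelial markers had the same order of samples within a genotype only in part. The 8 markers, among them Pecam1 and Cdh5, summed to 456, 307 and 377 CPM in WT replicates 1 to 3 and to 218, 345 and 298 CPM in Dlx2OE replicates 1 to 3. WT replicate 2 and Dlx2OE replicate 1 were the lowest of their genotypes in 7 of the 8, against 14.3% of all tested genes, but the highest sums were in WT replicate 1 and Dlx2OE replicate 2, and the highest Pdgfb in the replicates numbered 3. Between genotypes, 8 of the 8 endothelial markers had a lower fitted level in Dlx2OE (median log2 fold change -0.40, against 0.00 over all tested genes). Of the 8, 1 was lower at an adjusted p under 0.05, as were 3.46% of all tested genes. The 8 markers of pericytes and smooth muscle, the cells that carry Pdgfrb around vessels, had a median log2 fold change of -0.85, against 0.00 over all tested genes. The fitted level was lower in Dlx2OE for 7 and higher for 1, Notch3 (log2 fold change 0.21). At an adjusted p under 0.05, 1 of 8 was lower (3.46% of all tested genes) and none higher. An unadjusted p under 0.05 was reached by 5 of 8, against 29.5% of all tested genes. The 8 summed to 246 to 294 CPM in WT and 209 to 292 CPM in Dlx2OE. Notch3 made up 137 to 177 CPM of the sums in WT and 161 to 199 CPM in Dlx2OE. The part of endothelium and pericytes in the values of Pdgfb and Pdgfd was not tested. Pdgfb (ENSMUSG00000000489) lies on chromosome 15 (79995874 to 80014977, reverse strand). Its nearest protein-coding genes were the ribosomal protein gene Rpl3, at a log2 fold change of -0.56 (SE 0.182, adjusted p = 0.0934), and the Polycomb gene Cbx7, at 0.45 (SE 0.259, adjusted p = 0.281). Mir7213 and the antisense gene Gm41361, which overlap Pdgfb, had at most 3 counts in a library.

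Levels of different genes were compared per length of annotated exon. In WT, Pdgfra (37.0 ± 7.27 RPKM) was followed by Pdgfc (23.1 ± 0.577 RPKM), Pdgfa (21 ± 5.66 RPKM), Pdgfd (3.5 ± 0.29 RPKM) and Pdgfb (1.88 ± 0.376 RPKM; SD, n = 3 each). Pdgfc and Pdgfa overlapped between samples and could not be ordered, and their order turned when the longest coding transcript was used as the length. At the other steps in WT the samples of neighbouring genes did not overlap. In Dlx2OE, Pdgfd (1.63 ± 0.175 RPKM, SD, n = 3) had come down to the level of Pdgfb (1.99 ± 0.399 RPKM, SD, n = 3), and their samples overlapped. Pdgfd lay above 47.3% of 17496 tested genes in WT and above 34.4% in Dlx2OE.

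The mixture of ligand RNA was therefore that of Pdgfa and Pdgfc in both genotypes. Pdgfc made up 47 ± 4.44% of the summed ligand RPKM in WT and 46.8 ± 5.97% in Dlx2OE, and Pdgfa 42 ± 6.23% and 43.4 ± 8.6% (n = 3 each, SD). The share of Pdgfd was 8.12%, 6.19% and 7.06% in WT replicates 1 to 3 and 3.51%, 5.04% and 4.33% in Dlx2OE replicates 1 to 3. This was the only ligand whose share did not overlap between genotypes, with Pdgfb at 3.88 ± 1.14% in WT and 5.46 ± 2.1% in Dlx2OE (n = 3 each, SD). The summed ligand level was 46.8, 56.1 and 45.7 RPKM in WT replicates 1 to 3 and 51, 32.8 and 33.3 RPKM in Dlx2OE replicates 1 to 3. Dlx2OE replicate 1, the sample with the highest epithelial marker sum, was the Dlx2OE sample inside the WT range.

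**Figure D4:**
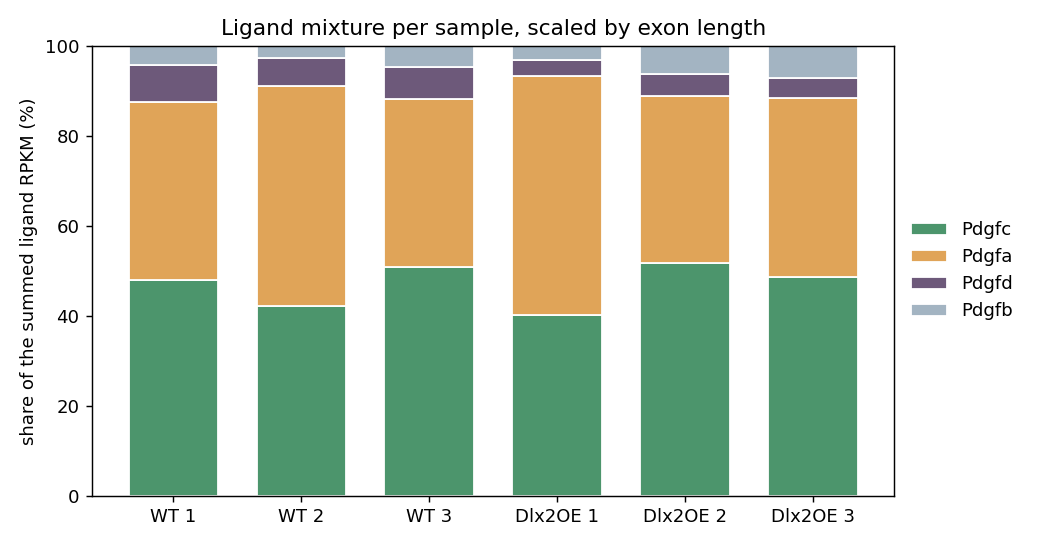
Share (y axis, percent) of each of the 4 ligands in the summed ligand RPKM of each sample, with a stacked bar for each of the 3 WT and 3 Dlx2OE samples. Pdgfc and Pdgfa fill most of every bar, and the Pdgfd segment is 6.19% to 8.12% in WT and 3.51% to 5.04% in Dlx2OE.

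No difference in receptor balance was seen beyond the spread between samples. Pdgfrb, the receptor of pericytes and mesenchyme, had 127, 128 and 155 CPM in WT replicates 1 to 3 and 134, 152 and 162 CPM in Dlx2OE replicates 1 to 3, a log2 fold change of 0.13 (SE 0.121, 95% interval -0.15 to 0.40, adjusted p = 0.51). The ratio of Pdgfra to Pdgfrb counts within a library, which no scaling of libraries can move, was 3.39, 2.26 and 2.52 in WT replicates 1 to 3 and 2.54, 2.68 and 2.49 in Dlx2OE replicates 1 to 3. WT replicate 1 had the highest ratio and WT replicate 2 the lowest, with all Dlx2OE samples between them. The mean log2 ratio differed by -0.06 (exact two-sided permutation p = 0.9), and by 0.11 without WT replicate 1. The other receptors and binding partners listed were Pdgfrl, Nrp1 and Lrp1. With Pdgfrb, none of the list of 4 passed in edgeR (median log2 fold change 0.13). There 1 had an unadjusted p under 0.05, as did 29.5% of all tested genes. Lrp1, an endocytic receptor that Pdgfrb signalling phosphorylates, had the smallest p, at 366 ± 72.3 CPM (WT) and 523 ± 104 CPM (Dlx2OE, n = 3 each, SD, adjusted p = 0.126 in edgeR and 0.0497 in DESeq2). Kit, the class III receptor tyrosine kinase gene 376700 bp beyond Pdgfra, had a log2 fold change of 0.08 (SE 0.114, adjusted p = 0.655).

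Across 6 lists of genes that process the ligands, carry or damp the signal, respond to it, or belong to the related VEGF, Kit and Csf1r families, 79 of 81 genes were tested. Of these, 5 were higher and 1 was lower in Dlx2OE at an adjusted p under 0.05, beside 2.99% of all tested genes higher, 3.46% lower and 6.45% either way, and the median log2 fold change was 0.04, against 0.00 over all tested genes. Egr2 and Il34 had too few counts for a test. The count was 0 when WT replicate 1, WT replicate 2, Dlx2OE replicate 2 or Dlx2OE replicate 3 was left out, and 13 in DESeq2, where 12.6% of all genes passed.

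Of the 9 genes of ligand processing and binding, Pcsk6 fell and Thbs1 rose at an adjusted p under 0.05 (list median -0.39). At that threshold 3.46% of all tested genes fell and 2.99% rose. Pcsk6, a proprotein convertase of the furin group that can mature PDGF-A and PDGF-B chains, had 21.2, 22 and 23.9 CPM in WT replicates 1 to 3 and 13.4, 7.58 and 11 CPM in Dlx2OE replicates 1 to 3, a log2 fold change of -1.07 (SE 0.209, adjusted p = 0.0305). Furin itself had a log2 fold change of 0.05 (SE 0.169, adjusted p = 0.869). Thbs1, a matrix glycoprotein that binds growth factors, had 128, 93.9 and 130 CPM in WT replicates 1 to 3 and 259, 195 and 201 CPM in Dlx2OE replicates 1 to 3, a log2 fold change of 0.90 (SE 0.166, adjusted p = 0.0264). Neither Pcsk6 nor Thbs1 overlapped between genotypes, as was so for 34.1% of all tested genes. Plat and Plau, proteases that free latent ligands, did not pass. Plat, which cuts PDGF-C, measured 34.9 ± 5.33 CPM (WT) and 28.9 ± 4.05 CPM (Dlx2OE, n = 3 each, SD, log2 fold change -0.27, SE 0.153, adjusted p = 0.266). Plau, which cuts PDGF-D and was named after its values were seen, measured 11.4 ± 2.23 CPM (WT) and 7.7 ± 1.53 CPM (Dlx2OE, n = 3 each, SD, log2 fold change -0.57, SE 0.221, adjusted p = 0.138).

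Inside the cell, 1 of 31 genes of signal transmission and 2 of 10 genes of signal attenuation rose at an adjusted p under 0.05, and none fell (medians 0.04 and 0.21). At that threshold 2.99% of all tested genes rose and 3.46% fell. Cbl and Cblb encode ubiquitin ligases that send activated receptor tyrosine kinases to degradation. Cbl had 95.3, 85.1 and 111 CPM in WT replicates 1 to 3 and 142, 137 and 151 CPM in Dlx2OE replicates 1 to 3 (log2 fold change 0.56, SE 0.118, adjusted p = 0.036). Cblb had 48.1, 47.8 and 60.6 CPM in WT replicates 1 to 3 and 75.5, 76.3 and 77.2 CPM in Dlx2OE replicates 1 to 3 (log2 fold change 0.55, SE 0.114, adjusted p = 0.0348). Pdpk1, the kinase that activates Akt, measured 60.1 ± 6.61 CPM (WT) and 83.8 ± 2.33 CPM (Dlx2OE, n = 3 each, SD, log2 fold change 0.48, SE 0.103, adjusted p = 0.0382). These are genes with long exon sequence, 10475 to 12345 bp, and after a correction for length and GC content none of them passed (log2 fold changes 0.30 to 0.37, adjusted p = 0.0682 to 0.0998).

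Of the early response genes of growth factor signalling, 11 of 12 were tested (median -0.05). Among them 1 rose at an adjusted p under 0.05, as did 2.99% of all tested genes. That gene was Srf, the transcription factor of the CArG box, with 47.3, 52.9 and 59.7 CPM in WT replicates 1 to 3 and 86, 81.7 and 80.9 CPM in Dlx2OE replicates 1 to 3. Its log2 fold change was 0.64 (SE 0.107, adjusted p = 0.0204), and 0.55 with an adjusted p of 0.0519 after the length and GC correction. None of the 14 tested relatives among the VEGF, Kit and Csf1r families passed in edgeR (median -0.04). There 6 had an unadjusted p under 0.05, as did 29.5% of all tested genes. DESeq2 called 3 of the 14, all lower in Dlx2OE, and it called 12.6% of all genes either way and 7.11% as lower. These 3 were Vegfc (adjusted p = 0.0194), Pgf (0.00635) and Csf1r (0.0147), the last also a macrophage marker. The smallest p in edgeR was that of Vegfc, a lymphatic growth factor of the same protein superfamily, at 16.1 ± 2.19 CPM (WT) and 10.6 ± 1.25 CPM (Dlx2OE, n = 3 each, SD, log2 fold change -0.60, SE 0.168, adjusted p = 0.0685).

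**Figure D5:**
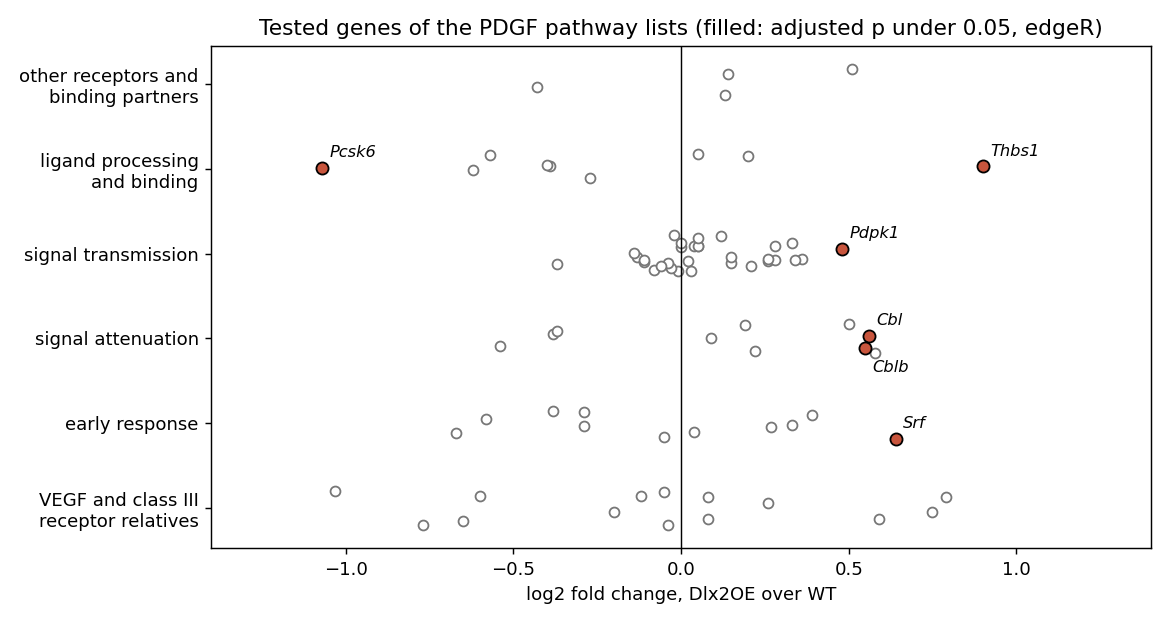
Log2 fold change of Dlx2OE over WT (x axis) of the 79 tested genes of 6 PDGF pathway lists, with a row for each list, a point for each gene and random vertical spread within a row. The 6 filled and named genes passed an adjusted p of 0.05 in edgeR, with Pcsk6 at -1.07 on the left and Thbs1 at 0.90 farthest to the right among them.

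The 5 genes were followed by different genes across the samples. Likeness was the Pearson correlation of log2 CPM over the 6 samples, which share genotype, library and cell makeup, among 13431 genes with a mean log2 CPM of at least 1. It is given as a description, since with 6 points many genes reach high values. Nearest to Pdgfra were Gm14403 (0.9835), Cdh6 (0.9805) and Zfp366 (0.98), and 12 genes exceeded 0.95. Nearest to Pdgfa were Tom1l1 (0.9946), Arl2 (0.9932) and 4631405K08Rik (0.9924), with 44 genes over 0.95. Nearest to Pdgfb were Samd12 (0.9949), Bmp1 (0.9927) and Nid2 (0.9903), the last a basement membrane protein, with 24 genes over 0.95. None of these 9 genes passed the test between genotypes in edgeR (smallest adjusted p 0.638). Nearest to Pdgfc were Tmem30b (0.9972), Igfbp7 (0.9954) and Penk (0.9942), with 151 genes over 0.95. These 3 had lower fitted levels in Dlx2OE, with log2 fold changes of -0.72, -0.79 and -0.89 (adjusted p = 0.0489, 0.102 and 0.0568). Nearest to Pdgfd were Gm10925 (0.9973), Gm28661 (0.9965) and Il13ra1 (0.9961), with 312 genes over 0.95. The first pair are pseudogenes close in sequence to mitochondrial genes, so their counts are uncertain, and all 3 were lower in Dlx2OE, with log2 fold changes of -1.76, -1.79 and -0.90 (adjusted p = 0.00489, 0.00489 and 0.0184).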

How the data were processed

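The authors trimmed adaptors and low-quality reads, mapped 150 bp read pairs to mm10 with STAR 2.7.3a and deposited raw counts per gene made with HTSeq 0.12.4, per their methods and processing notes. The annotation release and strand setting are not given in the sources used here. Libraries were selected for poly-A RNA. Between 16.8% and 25.3% of read pairs fell in no gene, were ambiguous or mapped to several places, and were left out. Symbols, positions and exon lengths came from GENCODE M21 (53706 of 53801 identifiers).

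Counts of all 6 samples were tested by genotype alone with edgeR 4.0.16 in R 4.3.3 (filterByExpr with a minimum count of 10, TMM, quasi-likelihood F test, Benjamini-Hochberg adjustment over 17514 genes). CPM are TMM-scaled, RPKM divide them by the union of annotated exons, and 3 counts correspond to 0.0955 to 0.111 CPM, which covers counting error only. Single genes were also given an exact two-sided permutation test. No measured value entered the rule that named the 5 genes, but they and the lists were chosen with earlier results of these data known. The genes named are the 5 members, some of the genes that border or overlap them, their 3 most alike genes, Dlx2, Pdgfrb and Plat. In each pathway list, every gene at an adjusted p under 0.05 is named, or else that with the smallest p. Furin, Plau, Pgf, Csf1r and the single cell type markers compared by level were added after their values were seen. The alternatives were DESeq2 1.42.0, RLE factors, library size alone, other count filters, removal of mitochondrial and haemoglobin genes, a replicate block, a loess correction for length and GC content (span 0.5) with and without the block, and leaving out each sample. Leaving out the 2 libraries with the highest epithelial marker sums was chosen after seeing the data. The test was tried on simulated data. Plots used Python 3.11.15 and matplotlib 3.10.9.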

Additional observations from a re-analysis of the deposited data

Results flagged for a closer look

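Read pairs that fell in no annotated gene, which enter no comparison, were more frequent in every Dlx2OE library than in any WT library. They made up 5.75%, 7.81% and 14.7% of the read pairs in Dlx2OE replicates 1 to 3, against 5.03%, 5.43% and 5.25% in WT replicates 1 to 3. The log2 fold change of Pdgfd was -1.02 without Dlx2OE replicate 3, the library with the highest share (adjusted p = 0.0551, edgeR).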

How the results depend on the processing

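Pdgfd was lower at an adjusted p under 0.05 in the 11 fits that used all samples or left out both libraries rich in epithelium, but in 2 of the 6 that left out 1 sample. Leaving out each sample moved the log2 fold change of Pdgfra between -0.11 and 0.17, of Pdgfb between -0.08 and 0.22, of Pdgfc between -0.49 and -0.30 and of Pdgfd between -1.18 and -1.02. It moved the members passing between 0 and 2, the pathway genes passing between 0 and 10 and the log2 receptor ratio between -0.19 and 0.11. All genes passing, 1130 in all samples, ranged from 79 to 2091. The length and GC correction turned Pdgfra to -0.14 and Pdgfb to -0.05, and with the replicate block to -0.12 and -0.03. Without both libraries rich in epithelium Pdgfra was at -0.03. None of these passed, and the cause was not tested. Pathway genes passing numbered 13 in DESeq2 and 10 with no filter on low counts, 2 after the length and GC correction with or without the block, and 1 without both libraries rich in epithelium. All genes passing numbered 2417 in DESeq2, 2044 with no filter, 760 after the correction, 478 with the block added and 571 without both libraries. Samples of the same number did not deviate together (correlations -0.072, -0.211 and 0.073), so the numbers are not taken as pairs. The replicate block gave -1.11 for Pdgfd (adjusted p = 0.0374), -0.38 for Pdgfc (0.105), 7 pathway genes and 961 genes in all, and changed no call among the 5 genes. The counts behind Pdgfb and Pdgfd, 123 to 351 per library, limit what could be seen of small changes.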
